A study of Mus musculus with 10 samples.

Results

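The diacylglycerol kinases are the enzymes that phosphorylate diacylglycerol to phosphatidic acid. Of the 18453 genes counted in RNA of mouse hippocampal field CA3, the 9 rows whose symbols are Dgka, Dgkb, Dgkd, Dgke, Dgkg, Dgkh, Dgki, Dgkq and Dgkz are described here. They were chosen by name, and the family was proposed after Dgki had been seen to be low in the Mef2c shRNA libraries. Its values in that comparison are therefore given as a description. Calls of members printed below come from fits over all genes, and nothing is read from them. All 9 passed the filter on low counts, which 14393 genes passed. The related gene Dgkk is outside the rule. It had 3 to 27 reads per library, against 231 or more for every member.

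Groups were 5 libraries from CA3 that received adeno-associated virus (AAV) with a short hairpin RNA against Mef2c, a neuronal transcription factor, and 5 from CA3 that received the same kind of virus with a scrambled hairpin. All mice were of strain C57BL/6J and were injected on both sides by stereotaxic surgery. The labels mark every library as male, although the injection protocol allows either sex; they give no age, no promoter for the hairpin and no statement that each library came from its own animal, so the errors below measure the spread between libraries. The protocol aims the knockdown at CA3 pyramidal neurons, while the RNA came from the tissue as a whole.

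Diacylglycerol is made at the membrane when phospholipase C, driven by Gq-coupled receptors such as the group I metabotropic glutamate receptors, splits phosphatidylinositol bisphosphate. It recruits protein kinase C, the Ras activators of the RasGRP family and the vesicle priming proteins of the Munc13 family through their C1 domains, and the kinases end that signal while making phosphatidic acid, itself a lipid messenger and a precursor for phosphoinositide resynthesis. At excitatory synapses, kinases of this family set how long diacylglycerol lasts on both the presynaptic and the postsynaptic side. The mammalian enzymes fall into type I (Dgka, Dgkb and Dgkg, with calcium-binding EF hands), type II (Dgkd and Dgkh, with a pleckstrin homology domain), type III (Dgke, with a preference for arachidonoyl diacylglycerol), type IV (Dgki and Dgkz, with ankyrin repeats and a tail that binds PDZ domains) and type V (Dgkq).

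Promoter windows of the members that differed most in direction, Dgki and Dgkz, are shown because the lowest and the highest log2 fold change of the family were theirs. Both are 300 bases from RefSeq (GRCm38.p6), reading 5′ to 3′ on the minus strand across an annotated start, and capitals mark GC boxes (GGGCGG) and CCAAT boxes (CCAAT) on either strand. For Dgkz the RefSeq window nearest the GENCODE gene start is shown. It still lies within the gene, whose 5′ end is at 91975864.
Dgki, chr6:37299927-37300226: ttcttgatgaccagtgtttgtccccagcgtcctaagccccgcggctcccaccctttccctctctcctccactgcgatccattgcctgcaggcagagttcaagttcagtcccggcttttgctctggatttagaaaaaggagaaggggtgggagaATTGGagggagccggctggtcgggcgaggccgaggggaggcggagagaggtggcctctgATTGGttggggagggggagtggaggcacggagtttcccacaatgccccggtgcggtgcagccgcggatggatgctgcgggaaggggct
Dgkz, chr2:91963514-91963813: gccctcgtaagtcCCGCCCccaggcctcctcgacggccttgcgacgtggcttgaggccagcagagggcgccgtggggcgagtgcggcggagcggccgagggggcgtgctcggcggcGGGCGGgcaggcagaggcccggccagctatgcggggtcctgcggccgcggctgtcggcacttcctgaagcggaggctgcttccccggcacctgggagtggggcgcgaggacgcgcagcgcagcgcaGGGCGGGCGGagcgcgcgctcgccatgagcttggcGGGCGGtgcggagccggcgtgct
The Dgki window held 2 CCAAT boxes and 0 GC boxes, and the Dgkz window 5 GC boxes, a pair of them overlapping, and 0 CCAAT boxes. The other Dgkz window, like the printed one at a start within the gene, held 2 CCAAT boxes and 1 GC box. The CCAAT difference between the genes therefore holds for the printed windows alone. GC content was 62.3% in the Dgki window, and 77.7% in the printed and 61.7% in the other Dgkz window. Over the 15 windows listed for the 9 members, 10 held a GC box and 4 a CCAAT box, where 35.7% and 37.4% of all 32851 windows in the table did. The MEF2 consensus was found in 0 of the 15 windows and in 3.19% of all windows. These letters describe these windows alone, and nothing about binding was measured.

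The members lie on 9 different chromosomes. Dgki (ENSMUSG00000038665) spans 454.2 kb of chromosome 6 (36846022 to 37300184, minus strand, GRCm38, GENCODE M21), with 0 genes overlapping its exons. The RefSeq gene runs 8641 bp further at the 3′ end, and reads there would count only if the authors' annotation reached that far, which no source used here gives. Dgkz (ENSMUSG00000040479) is far more compact, with 43.0 kb on chromosome 2 (91932824 to 91975864, minus strand), and its exons overlap those of Gm9821 on the opposite strand. Exons of Dgka, Dgkd, Dgkq and Dgkz overlap other protein-coding genes, those of Dgke and Dgkg an antisense transcript, and those of Dgkh a transcript of unknown kind on its own strand. Strandedness of the counting is not given, so reads from such overlaps cannot be told apart. The longest annotated transcript ranged from 2.83 kb in Dgka to 15.26 kb in Dgkh, whose 3′ untranslated region alone is 11358 bp. Coding sequences were most alike within types: 70.0% of aligned bases were identical between Dgkd and Dgkh, 69.8% between Dgkb and Dgkg, and 69.7% between Dgki and Dgkz, against 58.8% for the least similar pair, Dgkb and Dgkz. No pair of members shared a stretch of 50 bases in the transcripts compared.

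Library totals were 15669620 to 17798090 counts in the Mef2c shRNA and 14701928 to 15637076 counts in the scramble libraries. Mef2c, the targeted gene, stood at 111, 131, 121, 163 and 286 CPM (read counts scaled to the effective library size) in Mef2c shRNA libraries 1 to 5, against 166, 198, 176, 312 and 175 CPM in scramble libraries 1 to 5. The edgeR fit gave it a log2 fold change of -0.34 (SE 0.3, adjusted p = 0.489). The library labelled Mef2c shRNA 5 goes against its label. All 7 CA3 markers were detected in every library, with a summed level of 333 to 462 CPM in the Mef2c shRNA and 356 to 394 CPM in the scramble libraries. Markers of dentate granule cells (297 to 538 against 377 to 488 CPM), CA1 (518 to 622 against 587 to 649.9 CPM) and neocortex (262 to 327 against 279.9 to 348 CPM) were also present. Of 8 microglia markers, 4 rose in the edgeR fit over all genes, with sums of 330.4 to 641 CPM in the Mef2c shRNA and 285 to 388 CPM in the scramble libraries. Of 5 astrocyte markers 1 rose, and their sums were 1597, 1978, 2302, 2124 and 1079 CPM in Mef2c shRNA libraries 1 to 5, the first 4 above the scramble range of 1222 to 1546 CPM. Of 5 endothelial markers 1 rose (185 to 219 CPM in the Mef2c shRNA and 189 to 209.9 CPM in the scramble libraries), and of 5 inhibitory neuron markers 1 fell (559.7 to 721 CPM in the Mef2c shRNA and 631 to 693 CPM in the scramble libraries). Interferon-stimulated genes summed to 281, 230.0 and 274 CPM in Mef2c shRNA libraries 2, 3 and 4, to 89.7 and 19.7 CPM in libraries 1 and 5, and to 15.9 to 98.7 CPM in the scramble libraries. Of 7 oligodendrocyte markers 0 passed. Their sums were 4724 to 9450.3 CPM in the Mef2c shRNA libraries, highest in library 4, and 4941 to 7453 CPM in the scramble libraries, highest in library 3. The part of these markers in the levels described here was not tested.

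The most abundant member was Dgkz. Levels between genes are compared here as CPM per kb of annotated exon. Dgkz, which is known from mouse neurons to bind PSD-95 and to maintain dendritic spines, averaged 125 ± 7.08 in the Mef2c shRNA and 111 ± 9.83 in the scramble libraries (SD, n = 5 each). In the scramble libraries Dgkd followed at 23.6 ± 0.579, then Dgkg at 18.3 ± 2.14, Dgkb at 17.5 ± 2.06, Dgkh at 14.4 ± 1.52, Dgke at 12.5 ± 0.641, Dgki at 6.91 ± 0.359, Dgkq at 5.91 ± 0.146 and Dgka at 4.32 ± 0.512. The ranges of neighbours in that order overlapped for Dgkg with Dgkb, Dgkb with Dgkh and Dgkh with Dgke, so those steps lie within the spread of the 5 libraries, and the other 5 steps do not. With the longest transcript as the length, Dgkz stayed first, Dgkg came second, and Dgki, Dgkq and Dgka stayed at the bottom. Both lengths come from GENCODE, while the RefSeq Dgki gene runs 8641 bp further at the 3′ end. The place of Dgki in the order, its share and its ratio to Dgkz below therefore depend on the GENCODE length. The longer length was not tested.

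With the GENCODE exon length, Dgki moved to the bottom of the order in the Mef2c shRNA libraries, at 2.86 ± 0.663 CPM per kb. It lay below Dgkq at 4.36 ± 0.950 and Dgka at 4.58 ± 0.269. Its range there, 2.23 to 3.77, overlapped that of Dgkq, 3.42 to 5.94. Summed over the 9 members, the level averaged 207 CPM per kb in the Mef2c shRNA libraries (185 to 224) and 214 CPM per kb in the scramble libraries (205 to 225), so the ranges overlapped. Dgkz made up 60.5% ± 2.88 of that sum in the Mef2c shRNA libraries (55.8% to 63.1%) and 51.7% ± 3.21 in the scramble libraries (46.6% to 55.0%). Dgki made up 1.38% ± 0.302 in the Mef2c shRNA and 3.22% ± 0.141 in the scramble libraries. The ranges of both shares did not overlap between groups with this length. With the longest transcript as the length, the Dgkz shares overlapped, at 55.0% to 63.8% in the Mef2c shRNA and 46.4% to 55.7% in the scramble libraries, and the Dgki shares did not. In bulk tissue, fewer cells of a type and less RNA per cell cannot be told apart.

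**Figure D1:**
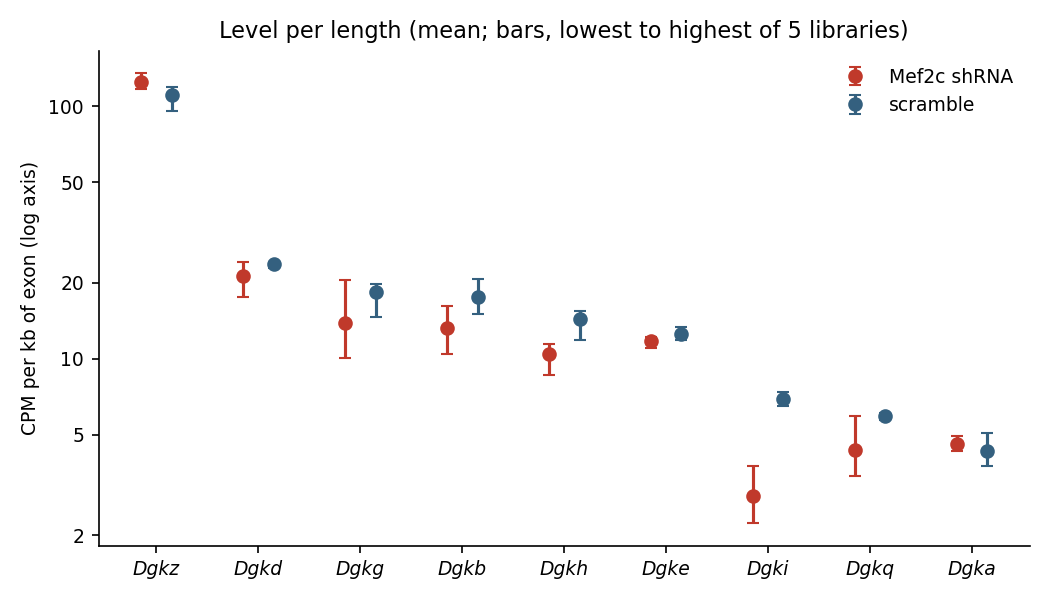
Level of each diacylglycerol kinase as CPM per kb of annotated exon on a log axis, with Mef2c shRNA libraries left of scramble libraries; points are means and bars run from the lowest to the highest of 5 libraries. Dgkz stands above all others in both groups, and Dgki is the member whose ranges lie furthest apart, 2.23 to 3.77 in Mef2c shRNA and 6.48 to 7.37 in scramble libraries.

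Of the 9 members, 4 passed an adjusted p of 0.05 downwards in the edgeR fit over all genes (Dgki, Dgkh, Dgkq and Dgkb) and 0 upwards, where 7.61% of all tested genes passed downwards and 4.66% upwards. At an unadjusted p under 0.05, 1 member (Dgkz) was higher, and the DESeq2 test called 0 higher. Since the family was proposed with this contrast known, nothing is read from that count. The median log2 fold change was -0.40 over the 9 members and 0.02 over all 14393 genes tested. In 2 members, Dgki and Dgkh, all Mef2c shRNA libraries lay below all scramble libraries, as they did in 6.04% of tested genes, and in 0 members they all lay above, as in 3.3% of tested genes.

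**Figure D2:**
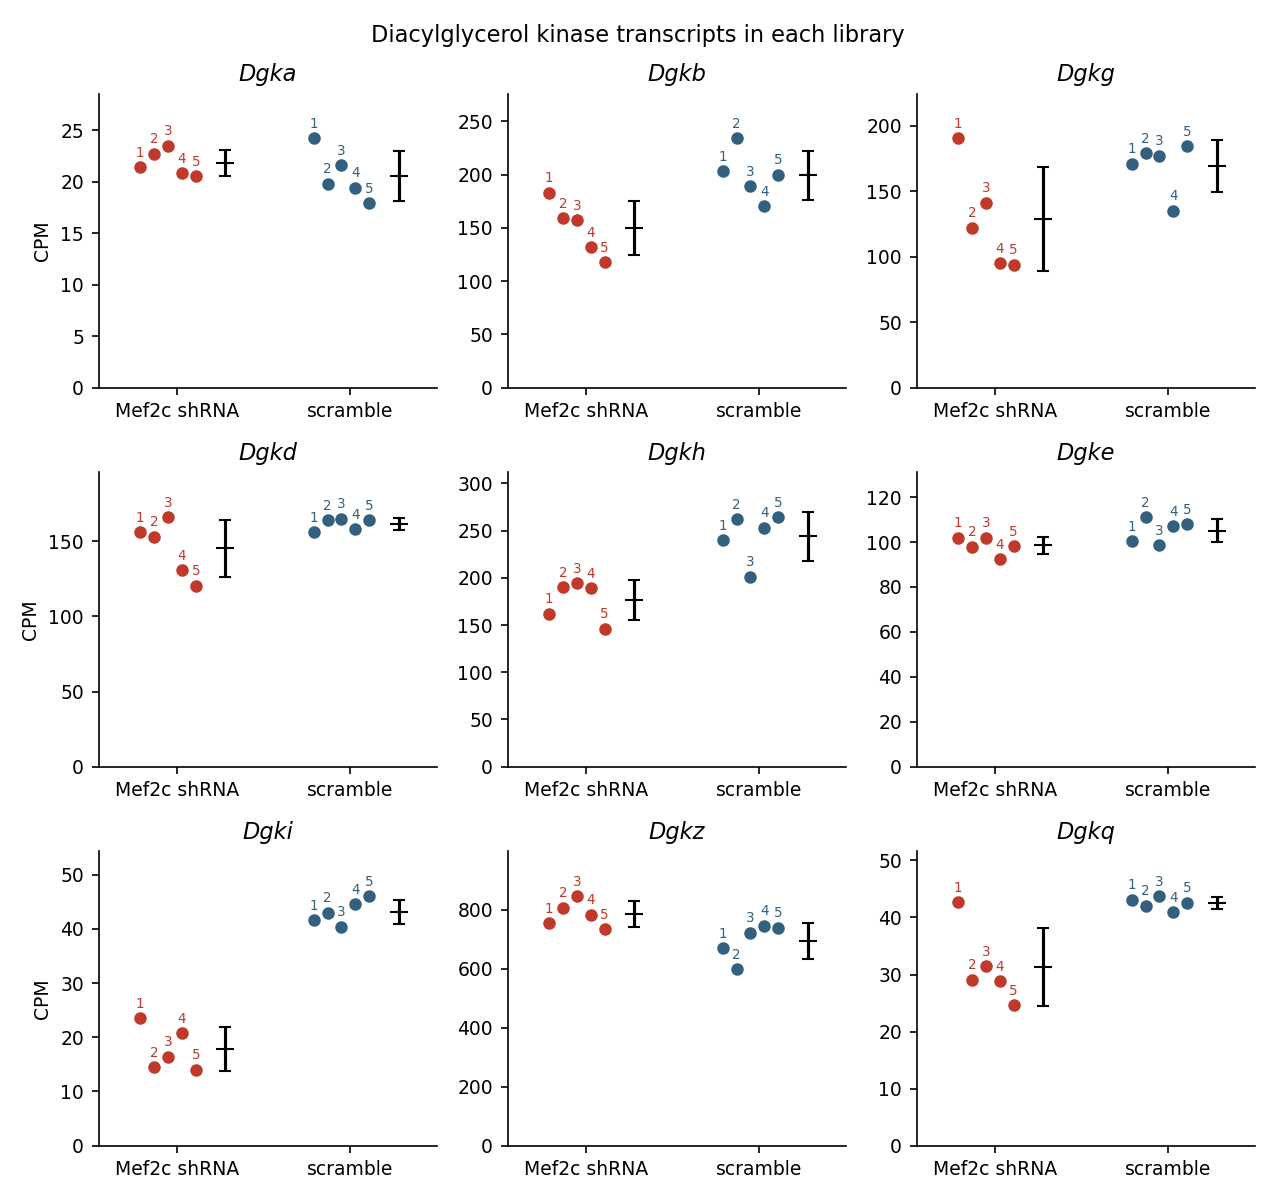
CPM of each diacylglycerol kinase in every library, grouped as type I (top row), type II and III (middle row) and type IV and V (bottom row); numbers are replicate numbers, Mef2c shRNA stands left of scramble, and bars show the mean ± SD of 5 libraries. The 5 Mef2c shRNA libraries of Dgki, at 14.0 to 23.5 CPM, lie well below the 5 scramble libraries at 40.4 to 46.0 CPM.

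Among the type IV kinases, Dgki was low in every Mef2c shRNA library. This isozyme binds PDZ domains of the PSD-95 family, and in mice its loss impairs presynaptic depression driven by metabotropic glutamate receptors. It stood at 23.5, 14.5, 16.4, 20.7 and 14.0 CPM in Mef2c shRNA libraries 1 to 5, against 41.6, 43.0, 40.4, 44.6 and 46.0 CPM in scramble libraries 1 to 5. The groups were far apart: the highest Mef2c shRNA value was library 1, and the library labelled Mef2c shRNA 5, with Mef2c at 286 CPM, had the lowest Dgki level of all. The mean was 17.8 ± 4.14 CPM in the Mef2c shRNA libraries, which is 41.4% of the scramble mean of 43.1 ± 2.24 CPM (SD, n = 5 each), with a log2 fold change of -1.27 (SE 0.128). Only 27 of the 14393 genes tested had a lower log2 fold change. With 1 library left out at a time it lay between -1.39 and -1.20. Leaving out the interferon-high Mef2c shRNA libraries 2, 3 and 4 together gave -1.21, in an edgeR fit that called 0 genes in all, Dgki among those not called, and had 2590 at an unadjusted p under 0.05.

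Its closest relative went the other way. Dgkz stood at 755, 808, 846, 784 and 734 CPM in Mef2c shRNA libraries 1 to 5, against 671, 598, 722, 746 and 739 CPM in the scramble libraries. In 4 of 5 Mef2c shRNA libraries it lay above every scramble library, and the library labelled Mef2c shRNA 5 fell within their range. The log2 fold change was 0.18 (SE 0.0703), which did not pass the threshold. Per kb of GENCODE exon, Dgkz exceeded Dgki by a ratio of 45.7 ± 10.3 in the Mef2c shRNA libraries (32.0 to 55.3) and 16.1 ± 1.42 in the scramble libraries (13.9 to 17.8). Dgkz is also abundant in T cells. T cell markers summed to 1.69 to 13.4 CPM in the Mef2c shRNA and 0.471 to 5.77 CPM in the scramble libraries, with Cd2 at 0 in at least 1 library, and their part in the Dgkz level was not tested.

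The type I members differed among themselves. Dgkb, a calcium-sensitive isozyme of striatal and hippocampal neurons whose loss in mice impairs long-term potentiation, stood at 183, 159, 157, 132 and 118 CPM in Mef2c shRNA libraries 1 to 5, against 203, 234, 189, 170.1 and 199.8 CPM in the scramble libraries. In 4 of 5 Mef2c shRNA libraries it lay below every scramble library, and library 1 overlapped them. Its log2 fold change was -0.41 (SE 0.113), and it passed the threshold in 4 of the 10 fits with 1 library left out, those without scramble library 3 or 4 or without Mef2c shRNA library 1 or the library labelled Mef2c shRNA 5.

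Dgkg, the isozyme studied in cerebellar Purkinje cells and also expressed in the hippocampus, stood at 190.2, 122, 141, 95.1 and 93.8 CPM in Mef2c shRNA libraries 1 to 5, against 171, 179, 177, 135 and 184 CPM in scramble libraries. The groups overlapped at both ends, since Mef2c shRNA library 1 was the highest of all 10. The coefficient of variation was 30.9% in the Mef2c shRNA and 11.7% in the scramble libraries. The log2 fold change of -0.40 (SE 0.189) did not pass, and without Mef2c shRNA library 1 it was -0.58 and passed. Dgka, best known for restraining T cell activation, stood at 20.5 to 23.5 CPM (median 21.4) in the Mef2c shRNA and 17.9 to 24.2 CPM (median 19.8) in the scramble libraries, with a log2 fold change of 0.08 (SE 0.0904).

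In type II, Dgkh was low in every Mef2c shRNA library. Mice without this isozyme are hyperactive. It stood at 162, 189.9, 194, 189 and 146 CPM in Mef2c shRNA libraries 1 to 5, against 239.9, 262, 201, 253 and 264 CPM in scramble libraries. No values overlapped, although Mef2c shRNA library 3 came within a few CPM of scramble library 3. The log2 fold change was -0.47 (SE 0.0928) and lay between -0.53 and -0.41 with 1 library left out at a time. Its paralog Dgkd, which modulates growth factor receptor signalling, stood at 156, 153, 166, 131 and 120.4 CPM in Mef2c shRNA libraries 1 to 5, against a narrow 156 to 165 CPM in the scramble libraries. The lower values came from Mef2c shRNA library 4 and the library labelled Mef2c shRNA 5, and the log2 fold change was -0.15 (SE 0.0799).

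The single type III member, Dgke, whose loss in mice lowers hippocampal long-term potentiation, was close between groups at 92.5 to 102 CPM (median 98.1) in the Mef2c shRNA and 98.7 to 111 CPM (median 107) in the scramble libraries. Its log2 fold change was -0.09 (SE 0.0565). The type V member Dgkq had 42.7, 29.1, 31.5, 28.8 and 24.6 CPM in Mef2c shRNA libraries 1 to 5, against 43.1, 42.1, 43.7, 40.9 and 42.6 CPM in scramble libraries. Mef2c shRNA library 1 sat among the scramble libraries and the other 4 lay below all of them. The log2 fold change of -0.44 (SE 0.116) passed the threshold with all libraries, and in 2 of the 10 fits with 1 library left out, those without Mef2c shRNA library 1 (-0.58) and without the library labelled Mef2c shRNA 5 (-0.36). Exons of Dgkq overlap those of Idua and Tmem175 on the opposite strand.

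Fold changes over the whole table followed transcript length, with a median log2 fold change of 0.20 for transcripts under 2.00 kb, -0.07 for those of 4.00 to 6.00 kb and -0.48 for those over 12 kb. Each member can be set beside the genes of its own length. Dgki, with a longest GENCODE transcript of 4.60 kb, lay far below the quartiles of its class, -0.17 and 0.05. In that class 0.226% of genes had a lower value. The RefSeq gene runs 8641 bp further at the 3′ end, so this class and the corrected Dgki values below depend on the GENCODE length. In the class over 12 kb, with quartiles of -0.60 and -0.32, 0.541% of genes had a lower value than Dgki. A correction with the longer length was not tested. Dgkh, at 15.26 kb, lay almost on its class median. After a correction of each library for transcript length and GC content, the log2 fold change was -1.25 (SE 0.11) for Dgki, 0.01 (SE 0.0958) for Dgkh, -0.19 (SE 0.094) for Dgkb and -0.38 (SE 0.0903) for Dgkq. With the correction the fit called 1.65% of all genes tested, 0.959% downwards and 0.695% upwards, and of the 9 members Dgki, from which nothing is read since its low level led to the choice of the family. Corrected Dgki levels were 22.2, 15.1, 16.3, 21.1 and 14.8 CPM in Mef2c shRNA libraries 1 to 5, against 42.0, 42.8, 39.2, 43.9 and 45.3 CPM in scramble libraries, still with no overlap. Dgke changed sign to 0.22 (SE 0.0537) and did not pass; its corrected range was 100.1 to 119.8 CPM in the Mef2c shRNA and 92.6 to 96.0 CPM in the scramble libraries. Dgkg kept its value at -0.39 (SE 0.178) and Dgkz was 0.12 (SE 0.0634), neither passing. The median over the 9 members became -0.05.

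**Figure D3:**
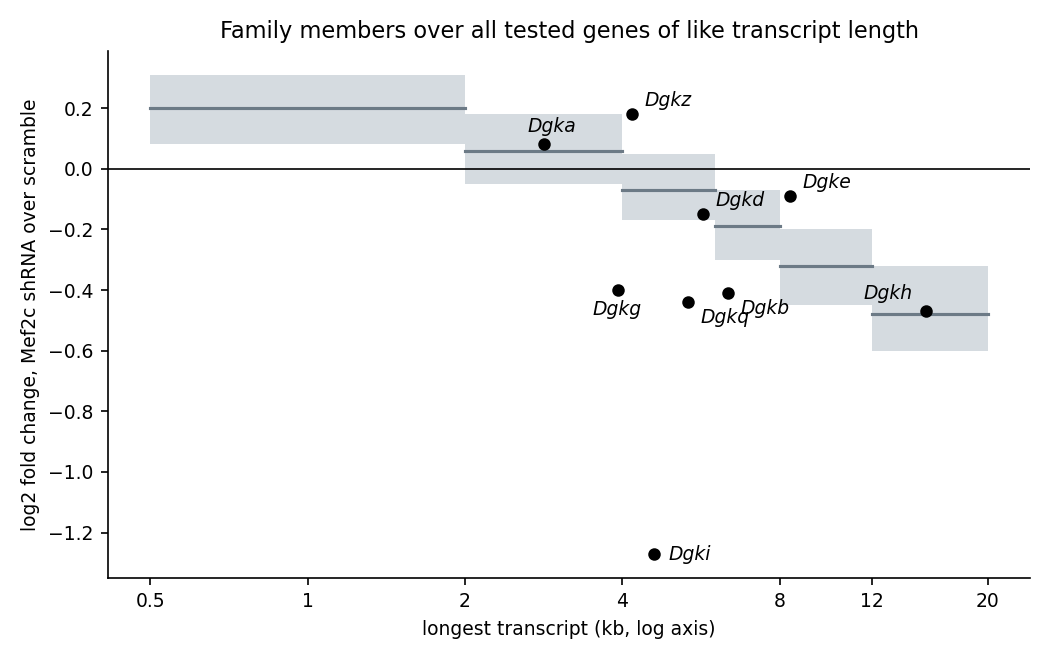
Log2 fold change of each member (points) against its longest annotated transcript in kb on a log axis; grey bands and lines are the quartiles and the median of all tested genes in each length class, the first class drawn from 0.5 kb and the last to 20 kb. Dgki at -1.27 lies far below its band, and Dgkh at -0.47 lies within its band.

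**Figure D4:**
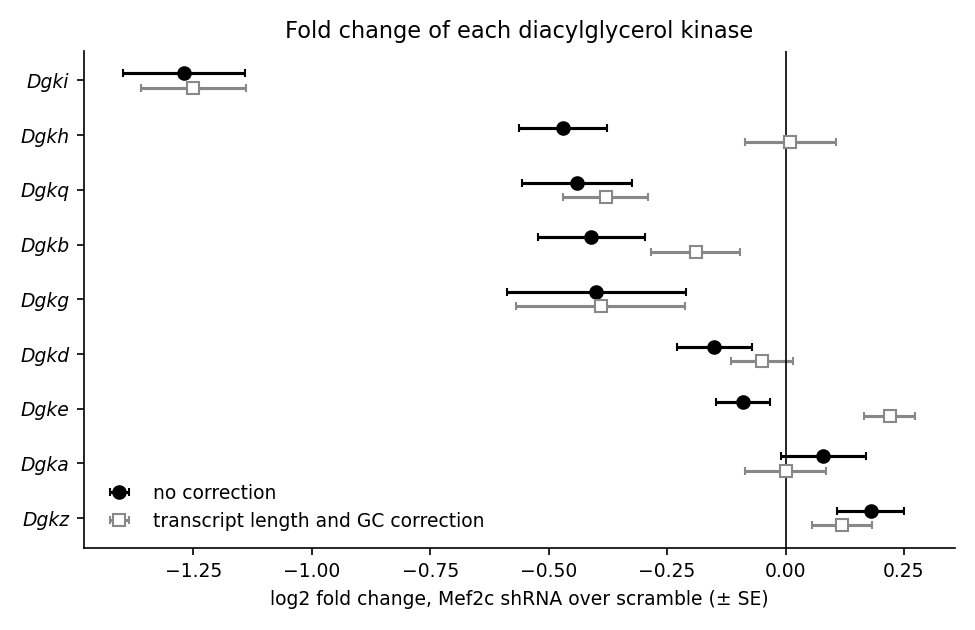
Log2 fold change ± SE of each member, Mef2c shRNA over scramble, without correction (filled circles) and with the transcript length and GC correction (open squares). Dgki keeps its value (-1.27 and -1.25), while Dgkh moves to 0.01 and Dgke to 0.22.

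By root mean square difference of log2 CPM, centred over the 10 libraries, the genes nearest to Dgki among 13059 were Tcp11l1 (0.14), the zinc finger gene Zbtb37 (0.16), the activin receptor Acvr2b (0.17), Aff2 (0.18), the GABA-A receptor subunit Gabrb2 (0.19) and an identifier with no match in the annotation (0.20), where Dgki itself departed from its mean by 0.68. All were low in the Mef2c shRNA libraries. With the length and GC correction the log2 fold change of Zbtb37 moved from -1.03 to -0.52. Corrected values of the other annotated genes lay between -1.30 (Acvr2b) and -0.91 (Tcp11l1). Gabrb2 averaged 55.1 ± 17.1 CPM in the Mef2c shRNA and 110.4 ± 11.8 CPM in the scramble libraries, and Acvr2b 2.80 ± 0.708 CPM in the Mef2c shRNA and 6.43 ± 0.579 CPM in the scramble libraries (SD, n = 5 each). The order rests on the shared difference between groups in the same 10 libraries.

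The genes that make, bind or remove diacylglycerol around the kinases mostly did not pass the threshold. Of 60 listed genes, all of them tested, 7 fell and 1 rose in the edgeR fit, 13.3% in all against 12.3% of all genes tested, and their median log2 fold change was -0.01 against 0.02. With Mef2c shRNA library 1 left out 14 of the 60 passed, and with scramble library 2, 4 or 5 or Mef2c shRNA library 2 left out 3 did.

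Upstream, 1 of 8 Gq-coupled receptor and G protein genes fell. Grm5, the group I metabotropic glutamate receptor mGluR5, stood at 245, 225, 222, 218 and 203 CPM in Mef2c shRNA libraries 1 to 5, against 302, 352, 273, 275 and 308 CPM in scramble libraries, with no overlap (log2 fold change -0.44, SE 0.0764, edgeR adjusted p = 0.00393). Of 12 phospholipase C genes, 2 fell. Plcb1, the isozyme coupled to mGluR5 and muscarinic receptors in hippocampal neurons, averaged 203 ± 20.6 CPM in the Mef2c shRNA and 256 ± 16.5 CPM in the scramble libraries (-0.34, SE 0.0746, edgeR adjusted p = 0.0133). Plch1 averaged 5.48 ± 1.25 CPM in the Mef2c shRNA and 8.59 ± 1.59 CPM in the scramble libraries (-0.65, SE 0.178, edgeR adjusted p = 0.0328). With 1 library left out at a time, Grm5 and Plcb1 passed in all 10 fits, and Plch1 in 3, those without scramble library 1, Mef2c shRNA library 1 or the library labelled Mef2c shRNA 5.

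Among effectors, protein kinase C beta stood out. Prkcb, a calcium- and diacylglycerol-activated kinase, stood at 434, 343, 362, 350.4 and 369.6 CPM in Mef2c shRNA libraries 1 to 5, against 458, 509, 471, 520.1 and 534 CPM in scramble libraries. Every Mef2c shRNA library lay below every scramble library (log2 fold change -0.42, SE 0.0734, edgeR adjusted p = 0.00393). Of the other 9 protein kinase C and D genes Prkch, at a low level, rose, with 6.26 ± 0.783 CPM in the Mef2c shRNA and 4.47 ± 0.248 CPM in the scramble libraries (0.48, SE 0.137, edgeR adjusted p = 0.0372), and the others did not pass. With 1 library left out at a time, Prkcb passed in all 10 fits, and Prkch in 3, those without scramble library 3 or Mef2c shRNA library 1 or 4. Of 9 further C1 domain effectors, the vesicle priming genes Unc13b (-0.38, SE 0.101, edgeR adjusted p = 0.0305) and Unc13a (-0.34, SE 0.104, edgeR adjusted p = 0.0478) fell. Unc13b passed in 4 of the 10 fits with 1 library left out, those without scramble library 1 or 3, Mef2c shRNA library 1 or the library labelled Mef2c shRNA 5, and Unc13a in 1, that without Mef2c shRNA library 1. Rasgrp3, whose product Dgki binds and restrains in mice, averaged 14.8 ± 4.13 CPM in the Mef2c shRNA and 15.7 ± 1.73 CPM in the scramble libraries and did not pass (-0.08, SE 0.181).

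On the side of removal and reuse, 0 of 2 diacylglycerol lipases and 0 of 8 phosphatidic acid phosphatase and phospholipase D genes passed the edgeR threshold. At an unadjusted p under 0.05 these counts were 0 and 1, and the DESeq2 test called 0 in each. Dagla, the lipase that makes the endocannabinoid 2-arachidonoylglycerol in neurons, averaged 297 ± 45.6 CPM in the Mef2c shRNA and 259.6 ± 20.2 CPM in the scramble libraries (0.19, SE 0.0972). Of 11 phosphoinositide resynthesis genes Cds2, which turns phosphatidic acid into CDP-diacylglycerol, fell to 617 ± 91.9 CPM in the Mef2c shRNA libraries, against 754 ± 21.1 CPM in the scramble libraries (-0.29, SE 0.0863, edgeR adjusted p = 0.0434), and passed in 2 of the 10 fits with 1 library left out, those without Mef2c shRNA library 1 or 3. After the length and GC correction Prkcb still passed (-0.50, SE 0.0697, edgeR adjusted p = 0.0054), and Grm5 (-0.15), Plcb1 (-0.08), Plch1 (-0.43), Unc13a (-0.07), Unc13b (0.10), Cds2 (-0.05) and Prkch (0.44) did not. The muscarinic receptor gene Chrm1 passed upwards with the correction (0.24, SE 0.0558) and did not without it (0.10, SE 0.0557). Its edgeR adjusted p with the correction rounds to 0.05, so that call lies at the threshold itself.

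**Figure D5:**
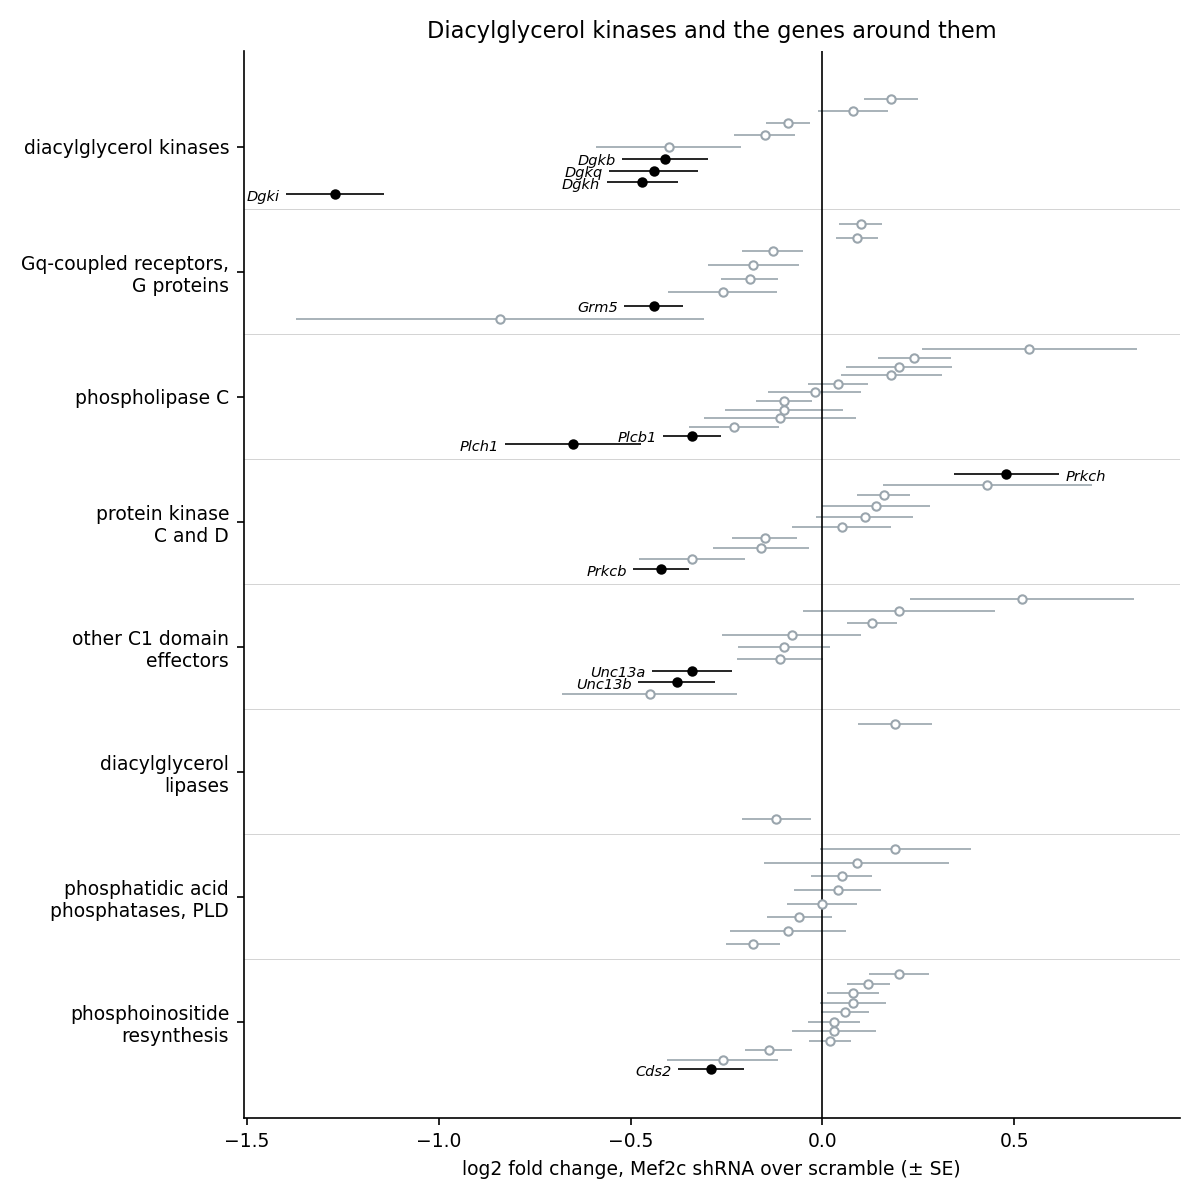
Log2 fold change ± SE, Mef2c shRNA over scramble, of the 9 diacylglycerol kinases and of 60 genes around them by role, without correction; filled named points passed the edgeR threshold over all genes and open points did not. Dgki at -1.27 lies below every other gene shown, and most points lie between -0.5 and 0.5.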

How the data were processed

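RNA of 10 CA3 libraries was sequenced by the submitters from polyadenylated RNA. Per the submitters' processing notes, HISAT2 and featureCounts were used with the build mm10; for their versions, settings, strandedness and annotation no source used here gives an entry. The authors deposited unnormalised counts by Ensembl gene identifier, of which 18445 of 18453 matched GENCODE M21 (GRCm38, the assembly of mm10). Groups came from the titles; in Mef2c shRNA library 1 the treatment tag is misspelt.

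The test was the quasi-likelihood test (robust option) of edgeR 4.0.16 in R 4.3.3, after filterByExpr and TMM scaling, at a Benjamini-Hochberg adjusted p under 0.05 over 14393 genes; the SE is the log2 fold change divided by the square root of F. The correction for transcript properties used natural splines (5 degrees of freedom) of log2 length and GC content, fitted per library to log2 CPM less its mean over libraries, as offsets. Alternatives used DESeq2 1.42.0, sva 3.50.0, a replicate block, no filter and left-out libraries. The test was also run on simulated counts of 14404 genes for the Mef2c shRNA against scramble comparison. It recovered 67% at a 1.5-fold change and 93% at a 2-fold change, and it called 6 unchanged genes. These simulated counts held no trend with transcript length, unlike the deposited counts. They therefore do not give the error of the uncorrected fit on the deposited counts. Every member had at least 231 counts in each library and the SD between libraries includes counting error. No libraries were duplicates (chi-square per degree of freedom 3.85 to 39.2 within groups).

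Named genes are Mef2c, the members, up to 4 called genes in each direction of each pathway group, and the 6 genes (mean CPM 2 or more) nearest to Dgki under each centring. Rasgrp3, Dagla, Chrm1 and the genes beside Dgki were named after their values were seen. Members and lists were chosen with earlier results of these data known.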

Additional observations from a re-analysis of the deposited data

Results flagged for a closer look

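In 36 sets of 5 libraries looked at for the members, the called pathway genes and Mef2c, 3 held a library far from the rest of its group; chance flags about 1 set in 20. Dgkg in scramble library 4 stood at 135 CPM, with the other scramble libraries at 171 to 184 CPM. Mef2c in the same library stood at 312 CPM, against 166 to 198 CPM in the others. Cds2 in scramble library 5 stood at 791 CPM, with the others at 736 to 749.8 CPM.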

How the results depend on the processing

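The number of genes called, 1766 with edgeR, was 238 with the length and GC correction, 710 with 1 surrogate variable, 1029 without scramble library 4 and the library labelled Mef2c shRNA 5, and 0 without Mef2c shRNA libraries 2, 3 and 4 (2590 at an unadjusted p under 0.05). The 4 family members called became 1, 2, 3 and 0 in that order, and the 8 pathway genes 2, 3, 5 and 0. With the replicate number of the labels as a block, 1313 genes, 4 members and 4 pathway genes were called. Same-numbered libraries correlated at 0.239, 0.185, 0.403, -0.114 and 0.0795 after removal of group means. Libraries of different numbers were not correlated for comparison, so whether the numbers pair the libraries was not tested. Grm5, Plcb1, Prkcb and Unc13b kept their calls under the block, and the first 3 with 1 surrogate variable; without the filter Unc13a and Prkch lost theirs. Leaving out 1 library gave 631 (scramble library 2) to 3305 (Mef2c shRNA library 1) genes, 2 to 5 members and 3 to 14 pathway genes. The Mef2c log2 fold change was -0.64 to -0.14 with 1 library left out, and -0.45 and past the threshold (edgeR adjusted p = 0.0274) without scramble library 4 and the library labelled Mef2c shRNA 5. Those libraries held the highest Mef2c of their groups, at 312 and 286 CPM. Leaving them out narrows the spread of the very gene tested, so nothing is read from that adjusted p. With the length and GC correction Dgkh changed sign to 0.01 (SE 0.0958) and Unc13b to 0.10 (SE 0.104), both within 1 SE of 0. The cause was not tested. Of 162 alternative values of the 9 members' fold changes, 158 lay within 1 SD of the libraries from the reported ones; Dgkb (-0.19) and Dgke (0.22) with that correction, and Dgkh (-0.67) without Mef2c shRNA libraries 2, 3 and 4, moved further. DESeq2 size factors, the DESeq2 Wald test (2555 genes) and no filter (1560 genes) called the same 4 members.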

Other observations

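The genes beside Dgki on chromosome 6 were looked at after its values were seen. Ptn, 35.8 kb beyond its 3′ end, averaged 201 ± 25.2 CPM in the Mef2c shRNA and 219 ± 11.9 CPM in the scramble libraries (log2 fold change -0.13, SE 0.0798, edgeR adjusted p = 0.304). Creb3l2, 27.1 kb beyond its 5′ end, averaged 21.4 ± 2.94 CPM in the Mef2c shRNA and 23.1 ± 2.45 CPM in the scramble libraries (-0.11, SE 0.106, edgeR adjusted p = 0.508). Further out, the muscarinic receptor gene Chrm2, 318 kb away, fell (-0.51, SE 0.123, edgeR adjusted p = 0.0188), and so did Trim24, 571 kb away on the other side (-0.25, SE 0.0744, edgeR adjusted p = 0.0455). Mtpn (-0.09, SE 0.0664, edgeR adjusted p = 0.401) and D630045J12Rik (-0.32, SE 0.104, edgeR adjusted p = 0.0597), beyond them, did not pass. Over all tested genes 7.61% passed downwards.

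With log2 CPM centred within each group, which removes the difference between groups, the genes nearest to Dgki were Tie1, Vcl, Fat1, Lrba, Kmt2a and Dock1, at root mean square differences of 0.07 to 0.08, where Dgki itself departed by 0.21. Vcl encodes the adhesion protein vinculin and Kmt2a a histone methyltransferase. Since these genes were picked for their nearness to Dgki within each group, they share its wider spread in the Mef2c shRNA libraries by that choice. Kmt2a, for example, stood at 166 ± 34.4 CPM in the Mef2c shRNA and 283 ± 14.1 CPM in the scramble libraries (SD, n = 5 each).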
